A study of Mus musculus with 2 samples.

Results

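The Inflammation neutrophils are 1 of the 9 clusters into which the authors divided the neutrophils of mouse liver metastases. Their members were taken from the Cluster column of the deposited neutrophil table, and they came to 2428 of 10922 neutrophils, among 44371 cells in all. The library of metastases grown from shZdhhc17 cells gave 1236 of them, and the library of metastases grown from shSCR cells gave 1192. The hairpin was carried by the injected cells, and the neutrophils came from the host mice.

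The injected cells were of the line 4T1, which derives from a triple-negative mammary tumour of the mouse. In the shZdhhc17 group they expressed a hairpin against Zdhhc17, which encodes a palmitoyltransferase, and in the shSCR group a scrambled hairpin. Both lines were made with the lentiviral pLKO.1 vector and selected with puromycin. Female BALB/c mice aged 6 to 8 weeks received 250000 cells into the spleen, which was taken out 2 minutes later, and metastases were dissected on day 14 and digested with Liberase for 45 min at 37 °C. Equal numbers of cells from 3 dissociations were pooled per group and run as 1 BD Rhapsody library (a microwell method that counts molecules with unique molecular identifiers, UMIs). Each group is therefore 1 sample, no test between the groups was possible, and intervals given here cover counting error only. Levels of single genes per library, Zdhhc17 included, were not analysed here. The libraries shared 609 cell barcodes over all cells, 31 among neutrophils and 2 among Inflammation cells.

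Neutrophils are short-lived phagocytes that leave the bone marrow with their granule proteins already made and change their transcripts again in inflamed tissue and tumours. Interleukin 1 beta, the product of Il1b, is a fever-inducing cytokine that is made as an inactive precursor and cut by inflammasome or neutrophil proteases. Its transcription, like that of many early inflammatory genes, is switched on by NF-kB and AP-1 factors, whose own inhibitors are induced alongside.

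The label was first set against the markers. The 5 genes by which the cluster is known (Il1b, Ccrl2, Cd84, Cxcr4 and Junb) were all among its 20 markers in the authors' deposited table, which is also where those 5 genes were picked, so this is a description. Csf3r, the receptor for the granulocyte growth factor and a defining neutrophil gene, was also a marker of this cluster. It was the 1 gene of an 8-gene neutrophil identity list that was, while 6 others (Ly6g, Mmp9, S100a8, Retnlg, Mmp8 and Cxcr2) were markers of other neutrophil clusters. Of 44 defining genes of 10 other cell types, 31 were detected among the neutrophils at all, 4 were among the 1000 most variable neutrophil genes, and 0 were among the 180 listed markers of any cluster. The 4 variable genes were 2 of erythroid cells, 1 of B cells and 1 of endothelium. Over all 21544 genes 0.835% were listed markers and 1000 were called variable. A count of 0 among 44 is near that share of markers. With 20 markers per cluster this does not show that such cells were absent.

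The secreted products stood first. In the authors' deposited table, Il1b was detected in 90.7% of Inflammation cells and 42.1% of all other neutrophils, with a log2 fold change of 2.05, the highest of the 20. It also had the highest marker score, the authors' product of fold change and specificity, at 1.47, against 0.80 for Ccrl2 in second place. Fgl2, which encodes a fibrinogen-like protein with coagulant and immunoregulatory roles, had the second-highest log2 fold change in the authors' deposited table (1.81), although it was detected in only 45.4% of Inflammation cells and 23.9% of the others. Il1b lies on chromosome 2 (129364570 to 129371139, minus strand) and Fgl2 on chromosome 5 (21372642 to 21378374, plus strand) of GRCm38. Both overlap a gene on the opposite strand, as do Txnip, Junb, Dusp1, Tnfaip2, Zfp36 and Adgre5. The overlaps are of whole gene spans, introns included. Reads from a stretch transcribed in both genes cannot be told apart unless strand was used in counting.

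Surface receptors made up 7 of the 20 markers, with a median log2 fold change of 1.53 in the authors' deposited table. Ccrl2, an atypical receptor that binds chemerin without the usual signalling, was detected in 59.2% of Inflammation cells and 29.5% of other neutrophils (log2 fold change 1.58). Cd84, a self-binding receptor of the SLAM family, was detected in 60.5% and 40.3% (1.60), again in the authors' deposited table. For Cxcr4, the CXCL12 receptor that holds neutrophils in the bone marrow and draws aged ones back to it, the shares were closer, 44.3% and 36.7%, while its log2 fold change in the authors' deposited table was 1.66.

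Other surface markers had lower log2 fold changes than Cd84 in the authors' deposited table. Adgre5, the adhesion receptor also known as CD97, was at 46.6% of Inflammation cells and 32.2% of the others, and the tetraspanin gene Tspan13 at 47.4% and 27.5%. Csf3r was detected in 89.4% of Inflammation cells and 84.9% of the others (log2 fold change 1.05). Csf3r had the lowest fold change of the 20.

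Early-response genes and their feedback inhibitors made up another 7 markers, with log2 fold changes within a narrow range of 1.25 to 1.39 in the authors' deposited table. They were Junb and Fos, subunits of AP-1, Dusp1, a phosphatase of MAP kinases, Zfp36, which speeds the decay of cytokine mRNAs, the antiproliferative genes Btg1 and Btg2, and Nfkbia, which encodes the NF-kB inhibitor IkB alpha. Each was common outside the cluster as well. In the authors' deposited table Zfp36 was detected in 78.0% of Inflammation cells and 75.1% of the others, Junb in 76.6% and 67.8%, Fos in 57.3% and 54.2%, and Dusp1 in 68.2% and 50.5%. Btg1 was detected in 67.2% of Inflammation cells and 51.6% of the others, and Btg2 in 61.4% and 52.7%, in the authors' deposited table. For Nfkbia the share was slightly lower in the cluster, 55.8% against 56.5%, although its log2 fold change was 1.29.

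The remaining 4 markers had a median log2 fold change of 1.55 in the authors' deposited table. Txnip, an inhibitor of thioredoxin that limits glucose uptake, was detected in 64.5% of Inflammation cells and 51.6% of the others (1.59). Marcks, an actin-binding substrate of protein kinase C, was at 65.9% and 44.6% (1.38), and Resf1, a factor that silences retroelements, at 72.3% and 66.5% (1.51). Tnfaip2, a gene induced by TNF, was at 55.2% and 55.6% in the authors' deposited table, so that its log2 fold change of 1.59 came with no higher share of positive cells.

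**Figure D1:**
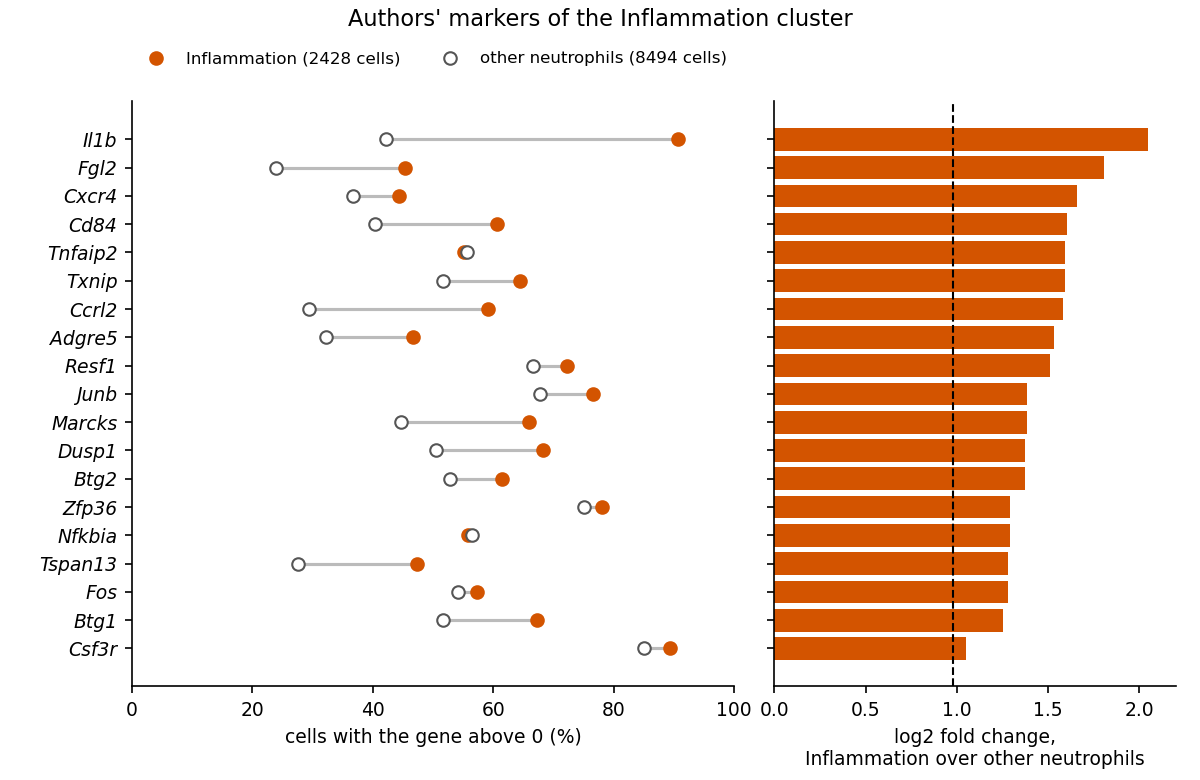
The left panel plots, for markers in the authors' deposited table, the percent of cells with the gene above 0 in Inflammation cells (filled) and in all other neutrophils (open); the right panel plots the authors' log2 fold change as bars, with a dashed line at 0.98, the value for a gene with 1 UMI in every neutrophil. Il1b has the widest gap between its points (90.7% and 42.1%), Tnfaip2 and Nfkbia have none in favour of the cluster, and the bar of Csf3r (1.05) ends nearest to the line.

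Compared with the other clusters, the markers of this cluster were separated less by how many cells expressed them. The median difference in the share of positive cells, cluster minus rest, was 10.8 percentage points, the lowest of the 9 clusters, against 33.6 points in Hypoxia/Angiogenesis and up to 80.8 points in Early-Stage 1. In the authors' deposited table, the gene was more often detected outside the cluster for 2 of the 180 listed markers, and these were Tnfaip2 and Nfkbia. The median log2 fold change of the 20 was 1.38, beside 1.49 over all 180 listed markers. The same genes made this cluster and these values, so none of them is a test.

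Depth per cell also differed between this cluster and the rest. Inflammation cells had a median of 1026.5 UMIs and 635 detected genes, against 3268 UMIs and 1135 genes in all other neutrophils. The authors scaled each cell to 10000 UMIs, so that 1 UMI was worth 9.90 scaled counts on average in an Inflammation cell and 4.54 in another neutrophil. A gene with exactly 1 UMI in every neutrophil would then differ by 0.98 on the log2 scale, with the authors' pseudocount of 1. All 20 markers lay above that value, and Csf3r (1.05) was nearest to it. The value differs for genes with more or fewer UMIs, so lying above it does not set a marker apart from depth. In the other 8 clusters all 20 markers also lay above the value computed in the same way. This value was 0.71 for Hypoxia/Angiogenesis, 0.07 for Migration 2 and negative for the rest, where any marker with a positive fold change passes. The part of depth in the marker values was not tested.

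The wider gene lists showed which genes of the same pathways were markers elsewhere. Of all 21544 genes in the neutrophil table, 0.0928% were markers of Inflammation and 0.835% of any cluster, so a short list with no marker says nothing about its genes. Of 24 AP-1 and immediate-early genes, all detected among the neutrophils, 6 were markers of Inflammation and 0 of any other cluster. Of 18 NF-kB feedback and target genes, 2 (Tnfaip2 and Nfkbia) were markers of Inflammation and 1, the chemokine gene Cxcl2, of Hypoxia/Angiogenesis. Of the 13 genes of the interleukin 1 pathway, Il1b was a marker of Inflammation, while Il1rn, which encodes the receptor antagonist of the same pathway, was a marker of Hypoxia/Angiogenesis (log2 fold change 2.25 in the authors' deposited table). No neutrophil chemokine of the 10 on that list was a marker of Inflammation, and Cxcl2 (2.72) and Cxcl3 (3.09) were markers of Hypoxia/Angiogenesis.

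Among 14 chemoattractant receptors, Ccrl2 and Cxcr4 were markers of Inflammation, and Cxcr2 (log2 fold change 0.87) and Fpr1 (0.87), the receptors for ELR chemokines and formyl peptides, were markers of Migration 2 in the authors' deposited table. Of 7 heat shock genes 0 were markers of Inflammation, and Hspa8 was a marker of Early-Stage 1. None of the 12 granule genes was a marker of Inflammation, although all 12 were markers of other clusters, and none of 10 survival genes was a marker of any cluster. Of the 13 hypoxia and glycolysis genes 5 were markers of Hypoxia/Angiogenesis and 0 of Inflammation, and of 11 interferon-stimulated genes 1, Ifitm3, was a marker of NETosis 1. Cd84 was the 1 marker among 9 SLAM family receptors. Each of the 180 markers was listed for 1 cluster only, so a gene listed for one cluster may also be high in another.

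The promoters of the markers were searched because NF-kB, AP-1 and cAMP-responsive factors are known to act on several of these genes. RefSeq sequences (GRCm38.p6) of the 250 bases before the start were at hand for 17 of the 20 genes, and Marcks and Adgre5 were among those not matched. Both strands were searched, each printed sequence held at most 1 match, and Il1b is shown as the leading marker beside 1 example of each motif, in lower case with the motif in capitals. Il1b (chr2:129371140-129371389, minus strand) held none of the 3 motifs, Nfkbia (chr12:55492648-55492897, minus strand) an NF-kB motif, Dusp1 (chr17:26508473-26508722, minus strand) the cAMP-responsive motif TGACGTCA, and Cd84 (chr1:171839447-171839696, plus strand) the AP-1 motif TGANTCA.
Il1b: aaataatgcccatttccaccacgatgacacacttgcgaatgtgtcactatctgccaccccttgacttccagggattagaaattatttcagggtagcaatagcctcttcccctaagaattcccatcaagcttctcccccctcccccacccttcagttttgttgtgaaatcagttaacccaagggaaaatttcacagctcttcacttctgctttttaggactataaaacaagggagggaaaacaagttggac
Nfkbia: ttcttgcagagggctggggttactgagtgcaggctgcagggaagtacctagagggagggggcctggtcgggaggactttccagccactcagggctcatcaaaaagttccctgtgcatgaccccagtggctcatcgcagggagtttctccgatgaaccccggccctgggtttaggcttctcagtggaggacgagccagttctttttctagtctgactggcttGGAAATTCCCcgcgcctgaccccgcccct
Dusp1: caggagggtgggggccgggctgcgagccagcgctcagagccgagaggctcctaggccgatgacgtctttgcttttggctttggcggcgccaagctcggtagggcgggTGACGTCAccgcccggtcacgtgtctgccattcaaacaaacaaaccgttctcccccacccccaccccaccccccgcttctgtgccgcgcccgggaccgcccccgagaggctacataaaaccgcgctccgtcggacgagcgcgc
Cd84: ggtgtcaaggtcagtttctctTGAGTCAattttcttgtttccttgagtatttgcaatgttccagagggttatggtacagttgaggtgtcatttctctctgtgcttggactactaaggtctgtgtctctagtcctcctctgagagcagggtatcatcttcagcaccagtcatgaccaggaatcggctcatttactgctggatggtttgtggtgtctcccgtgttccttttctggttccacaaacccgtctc

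The NF-kB motif was found for 5 of the 17 genes (Ccrl2, Csf3r, Fos, Nfkbia and Tnfaip2), that is 29.4%. By window it was in 5 of their 19, beside 7.25% of all 32851 promoter windows of the same length. TGACGTCA was found for 2 genes (Btg2 and Dusp1), 11.8%, and TGANTCA for 2 (Cd84 and Fgl2), 11.8%. Each was in 2 of the 19 windows, beside 1.55% and 6.75% of all windows. The motifs were picked because their factors are known to act on several of these genes, so this is no test. In Nfkbia the motif lay 29 to 20 bases before the start, in Dusp1 143 to 136 and in Cd84 229 to 223. Ccrl2 has several start sites in the table, so a gene can hold a motif by more than 1 window. A match of letters does not show that a factor bound there.

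The second question was where the Inflammation cells lie among the neutrophils. On the authors' UMAP, 86.7% of the 15 nearest neutrophils of an Inflammation cell belonged to the same cluster, 5.26% to Hypoxia/Angiogenesis, 4.40% to Migration 1 and 3.60% to Migration 2. The NETosis and Early-Stage clusters supplied 0% of these neighbours. The share of own neighbours was the third lowest of the 9 clusters, after Migration 1 (67.9%) and Migration 2 (75.2%), and close to that of Hypoxia/Angiogenesis (88.7%). Clusters and UMAP were made from the same cells, so these shares describe where the cluster lies and test nothing. Inflammation cells were surrounded by their own cluster at 88.2% in the shZdhhc17 library and 85.2% in the shSCR library. The libraries were partly set apart around Inflammation cells. Of the neighbours in any cluster, 56.9% for shZdhhc17 cells and 46.1% for shSCR cells came from the shZdhhc17 library. This was not particular to the cluster. The same shares were 41.1% and 28.9% in Hypoxia/Angiogenesis, 39.7% and 26.5% in Migration 1, and 51.8% and 40.6% in Migration 2.

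**Figure D2:**
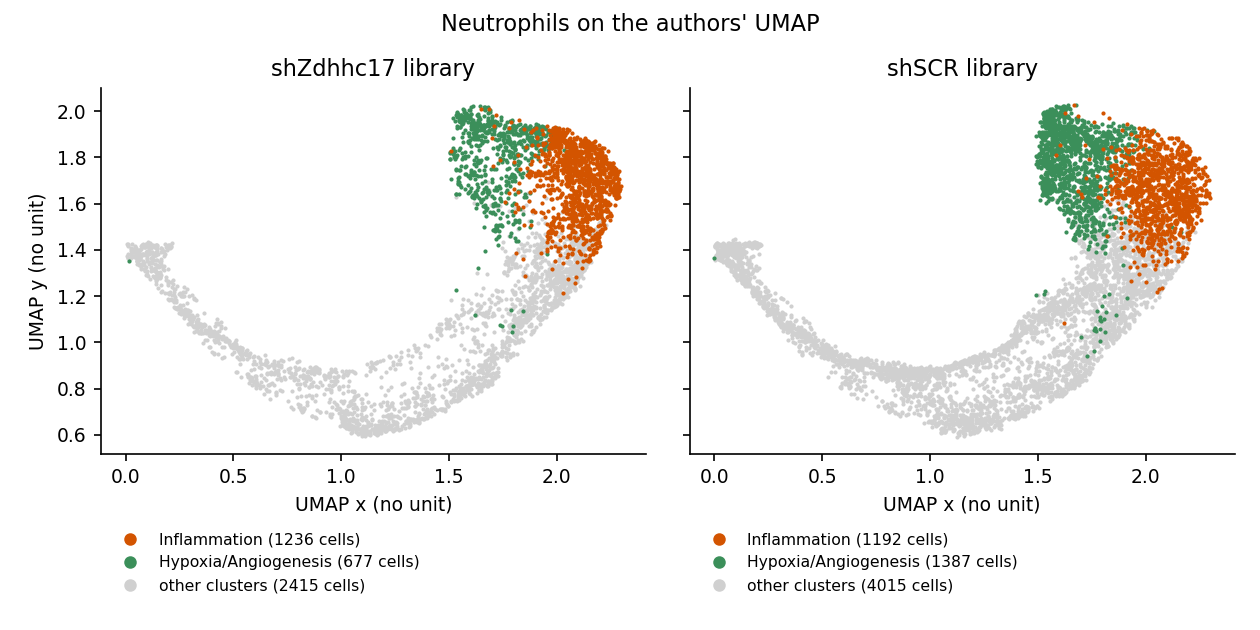
Each point is 1 neutrophil on the authors' UMAP (axes without unit), with the shZdhhc17 library on the left and the shSCR library on the right; Inflammation cells are orange, Hypoxia/Angiogenesis cells green and the other 7 clusters grey. Inflammation (1236 and 1192 cells) borders Hypoxia/Angiogenesis (677 and 1387 cells) and the upper end of the grey arc in both panels, and the green area is more thinly filled on the left.

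Inflammation cells had the lowest median UMI count of the 9 clusters in both libraries. The shZdhhc17 cells had a median of 906 UMIs (quartiles 760.75 and 1110.5) and 582 genes, and the shSCR cells 1175 UMIs (951.75 and 1483.5) and 695.5 genes, a ratio of medians of 0.771. Hypoxia/Angiogenesis came next, with 954 UMIs in shZdhhc17 and 1295 in shSCR (ratio 0.737). Over the 9 clusters this ratio ran between 0.593 (Migration 1) and 0.785 (NETosis 1), so every cluster was shallower in the shZdhhc17 library. No Inflammation cell exceeded 3933 UMIs, while neutrophils of other clusters reached 50943.

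**Figure D3:**
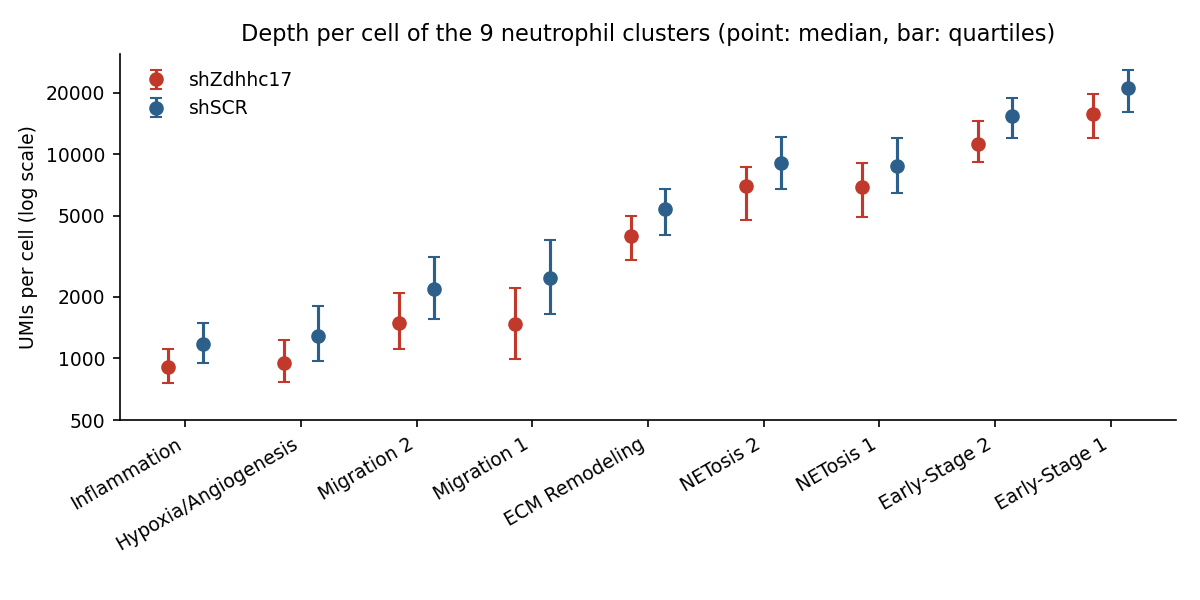
Points are median UMIs per cell and bars the quartiles, on a log axis, for each of the 9 neutrophil clusters in the shZdhhc17 (red, left of each pair) and shSCR (blue) libraries. Inflammation is lowest at 906 and 1175 UMIs, next to Hypoxia/Angiogenesis at 954 and 1295, and red lies under blue in every cluster.

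At like depth, Inflammation cells held more kinds of transcript than Hypoxia/Angiogenesis cells. Within 10 classes of UMIs the median number of detected genes was higher in Inflammation in 10 of 10 classes in the shZdhhc17 library, with ratios of 1.04 to 1.10, and in 10 of 10 classes in the shSCR library, with ratios of 1.02 to 1.08. The median ratio was 1.07 in each library. With 5 classes 1 shSCR ratio was 0.995, and the others stayed above 1. In the shZdhhc17 class of 1005 to 1095 UMIs, for example, Inflammation cells had a median of 658 genes and Hypoxia/Angiogenesis cells 603. Between the libraries, shZdhhc17 over shSCR Inflammation cells at like UMIs had a median gene ratio of 1.02, with a range of 0.979 to 1.07 over 10 classes.

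Mitochondrial transcripts were scarce in both clusters. Mitochondrial UMIs are here the deposited percent times the UMIs, after the authors' correction for ambient RNA, rounded to whole counts. A cell without one may therefore have lost it to the correction or the rounding. No mitochondrial UMI was left in 58.0% of shZdhhc17 Inflammation cells (exact 95% interval 55.2 to 60.8) and 37.7% of shSCR Inflammation cells (34.9 to 40.5). The corresponding shares in Hypoxia/Angiogenesis were 54.1% and 31.4%. In all neutrophils outside Inflammation, Hypoxia/Angiogenesis cells included, they were 20.6% and 10.4%. Within the same 10 UMI classes, cells without such a UMI were more frequent in Inflammation than in Hypoxia/Angiogenesis in 3 classes of the shZdhhc17 library and in 4 of the shSCR library, and less frequent in the rest. Between the libraries, the share after matching on UMIs was 49.9% for shZdhhc17 cells against 44.1% for shSCR cells, with a ratio of 1.13 (1.04 to 1.23). That difference was uneven, with shZdhhc17 higher in 7 of 10 classes and the exact intervals apart in 1 of them, the shallowest class of 520 to 704 UMIs (78.2% against 53.2%).

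The third question was how silencing Zdhhc17 in the cancer cells went with the share of this state. Among neutrophils, Inflammation cells were 28.6% in the shZdhhc17 library (exact 95% interval 27.2 to 29.9). In the shSCR library they were 18.1% (17.2 to 19.0), which puts shZdhhc17 over shSCR at 1.58 (1.47 to 1.69). The denominators differed, with 4328 neutrophils among 21511 cells in shZdhhc17 and 6594 among 22860 in shSCR. Inflammation cells themselves numbered 1236 and 1192, and as a share of all cells the ratio was 1.10 (1.02 to 1.19). The exact intervals were apart in either direction in 66.7% of the 9 clusters, and apart with shZdhhc17 higher in 33.3%. With UMIs matched the ratio was 1.07 (1.01 to 1.14), with overlapping intervals of the shares. Among neutrophils with at least 1093 UMIs it was 0.924 (0.817 to 1.04).

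Split by depth, the difference changed direction. In the shallowest of 10 classes of neutrophils (504 to 815 UMIs) Inflammation made up 59.4% in shZdhhc17 (55.7 to 63.0) and 38.6% in shSCR (33.6 to 43.9). In the next class (816 to 992 UMIs) it made up 54.7% and 45.2%, again with intervals apart. In the class of 993 to 1197 UMIs the shares were 50.2% and 43.9%, and in that of 1198 to 1492 UMIs 34.4% and 41.1%, both with overlapping intervals. Deeper cells showed the opposite order, with 19.4% in shZdhhc17 and 27.7% in shSCR between 1493 and 1996 UMIs, and 4.15% against 10.2% between 1997 and 3104 UMIs. Of the 10 classes 2 were higher in shZdhhc17 with intervals apart, 2 were lower and 6 overlapped, of which 3 held no Inflammation cell in either library. Since Inflammation cells themselves had fewer UMIs in shZdhhc17, a class of UMIs does not hold the same part of the cluster in each library.

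Hypoxia/Angiogenesis, the cluster nearest in depth, gave a comparison that kept its direction over depth. Hypoxia/Angiogenesis itself was the smaller share of neutrophils in shZdhhc17, at 15.6% against 21.0% in shSCR (ratio 0.744), so the pair share moves through both of its members. Of the cells in these 2 clusters together, 64.6% were Inflammation in shZdhhc17 (62.4 to 66.8) and 46.2% in shSCR (44.3 to 48.2), a ratio of 1.40 (1.33 to 1.47). This comes to 1.83 Inflammation cells per Hypoxia/Angiogenesis cell in shZdhhc17 and 0.859 in shSCR. Inflammation was higher in shZdhhc17 in 10 of 10 UMI classes, with exact intervals apart in 5. In the shallowest class (504 to 712 UMIs) its share was 67.0% against 37.8%, in a middle one (981 to 1080 UMIs) 70.7% against 52.9%, and in the deepest (1925 to 9727 UMIs) 29.2% against 25.2%, with overlapping intervals in the last. Weighting the classes equally gave 61.0% in shZdhhc17 and 47.0% in shSCR, a ratio of 1.30 (1.22 to 1.37).

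**Figure D4:**
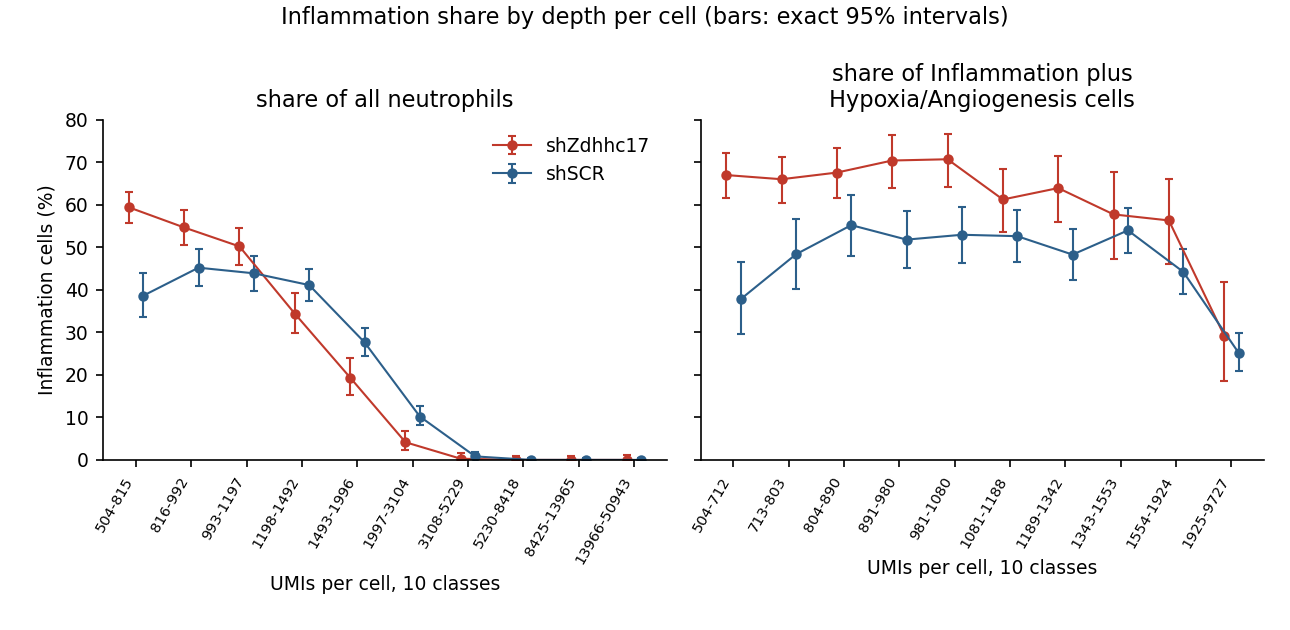
Percent of Inflammation cells (points, with exact 95% intervals) in 10 classes of UMIs per cell, among all neutrophils (left) and among Inflammation plus Hypoxia/Angiogenesis cells (right), for the shZdhhc17 (red) and shSCR (blue) libraries. On the left the lines cross between 993 and 1492 UMIs, and on the right the shZdhhc17 points lie above the shSCR points in all 10 classes.

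The same comparison with each other cluster put Hypoxia/Angiogenesis into context. Inflammation was the higher share in shZdhhc17, with intervals apart, in 87.5% of the 8 pairs, and the exception was NETosis 2 (77.6% against 74.6%). With NETosis 1 the pair share was 85.1% in shZdhhc17 and 61.0% in shSCR (ratio 1.40), with Migration 1 it was 79.8% and 60.6% (ratio 1.32), and with Migration 2 it was 67.3% and 62.9% (ratio 1.07). All pairs share the same Inflammation cells, so they are not separate evidence. Taken over all depths, the higher share against Hypoxia/Angiogenesis is not particular to that pair. Only that pair was split by UMIs, so whether the other pairs keep their direction over depth was not tested.

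The mix of the 2 libraries was not uniform within the cluster. The authors' initial clustering of all cells had spread its members over 21 fine clusters, and their later reclustering over 61, of which 23 held at least 50 Inflammation cells. The spread of the other neutrophil clusters was not compared, so these counts do not set this cluster apart. In 16 of these 23, at least 95% of the neutrophils were Inflammation cells. The shZdhhc17 library supplied 50.9% of all Inflammation cells (48.9 to 52.9), against 39.6% of all neutrophils. Across the 23 fine clusters its part lay between 17.3% and 75.6%, with 6 above and 6 below the pooled value with intervals apart, and 11 overlapping it.

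Fine clusters with a high part of shZdhhc17 cells lay mostly among the shallow ones. The one numbered 67 in the reclustering held 62 shZdhhc17 and 20 shSCR cells with a median of 919 UMIs, and the one numbered 5 held 103 and 42 cells with 859 UMIs. At the other end, number 70 held 13 shZdhhc17 and 62 shSCR cells with a median of 1263 UMIs, and number 61 held 24 and 61 cells with 1307 UMIs. Over the 23 fine clusters, Spearman's rho between the median UMIs and the shZdhhc17 part was -0.83, and it was -0.94 over the 10 initial clusters with at least 50 Inflammation cells. These points share 2 libraries that differ in depth, so rho is given as a description without a test. Which genes set the fine clusters apart was not analysed here.

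**Figure D5:**
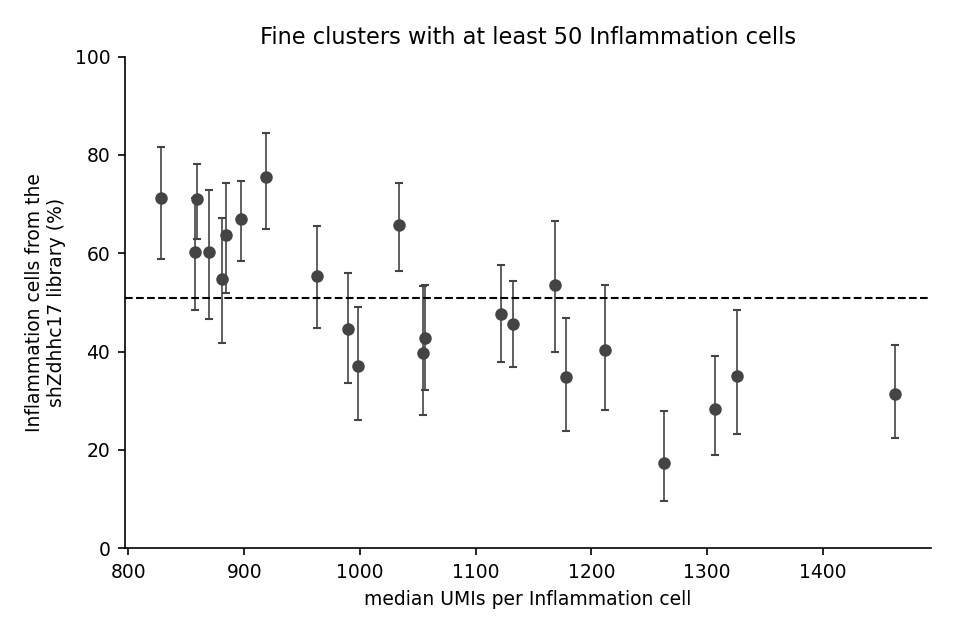
Each point is 1 of the 23 fine clusters with at least 50 Inflammation cells, placed by the median UMIs of those cells (x) and the percent of them from the shZdhhc17 library (y, with exact 95% intervals); the dashed line marks 50.9%, the percent over all Inflammation cells. The highest point (75.6%) is at 919 UMIs and the lowest (17.3%) at 1263 UMIs, with scatter between them.

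With all cells as the denominator, Inflammation came to 5.75% for shZdhhc17 against 5.21% for shSCR. The exact intervals overlapped, and the ratio was 1.10 (1.02 to 1.19). Among cells other than cancer cells the shares were 9.10% for shZdhhc17 and 7.16% for shSCR, with a ratio of 1.27 (1.18 to 1.37). Restricted to fine clusters made up of Inflammation cells by at least 95%, the share of neutrophils was 19.9% for shZdhhc17 against 10.3% for shSCR, with a ratio of 1.93 (1.76 to 2.12). This limit was chosen after the data were seen. Inflammation cells of these fine clusters had median UMIs of 889 in shZdhhc17 and 1093.5 in shSCR.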

How the data were processed

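Cells were called with the BD Rhapsody pipeline, and the authors corrected their counts for ambient RNA before clustering, per the file headers. Gene symbols follow GRCm38 (mm10). The submitters' processing notes name Seurat 4.1.0. For the pipeline version, the ambient correction tool and the use of strand, the sources used here give nothing. The deposited cell tables hold UMI and gene counts per cell and the percent of mitochondrial UMIs, both after correction, with UMAP coordinates, which are a score without unit. The deposited marker table holds the authors' log2 fold changes (per its header, Seurat's default Wilcoxon method, with cells scaled to 10000 UMIs and a pseudocount of 1), the fraction of positive cells in and outside a cluster (printed as percent), and 2 scores. Gene tables hold flags only.

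The 2 libraries had 172527305 (shZdhhc17) and 214842365 (shSCR) UMIs. No cell was filtered or called a doublet beyond the authors' labels, and 2 cell barcodes of Inflammation cells occurred in both libraries (609 over all cells). Shares have exact Clopper-Pearson 95% intervals and ratios log-normal ones, from counts of cells. A count of 0 cells would allow up to 3 cells. UMI classes split the cells into 10 classes of about equal size. Matching weights the classes equally, was tested on simulated data, and its interval is a normal approximation. The simulated libraries differed by a constant ratio at every depth. Among the neutrophils here the difference changed direction with depth, so the simulation does not cover that case. Positions and overlaps of whole gene spans come from GENCODE M21 on GRCm38. In it 8 of the 20 markers overlap a gene on the opposite strand (Il1b, Txnip, Fgl2, Junb, Dusp1, Tnfaip2, Zfp36 and Adgre5). Their counts from the shared stretches are uncertain if strand was not used. The markers of the cluster are named, except 1 that is not reported here, and other genes where a list holds them. The members and the 22 gene lists (187 genes) were chosen with earlier results of these data known. Python 3.11.15, pandas 2.3.3, NumPy 2.4.6, SciPy 1.17.1 and matplotlib 3.10.9 were used.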

Additional observations from a re-analysis of the deposited data

How the results depend on the processing

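The ratio of the Inflammation share of neutrophils (1.58) was 1.58 without the 5% of cells with most UMIs and 1.48 without Hypoxia/Angiogenesis in the denominator. It was 1.09 with at least 1000 UMIs, 1.07 matched on UMIs and 1.10 as a share of all cells, with overlapping intervals. Without neutrophils under 1093 UMIs it fell to 0.924 (0.817 to 1.04), also with overlapping intervals of the shares. It was 1.31 with at least 1 mitochondrial UMI, 1.27 among cells other than cancer cells and 1.93 in the core fine clusters, with intervals apart. The limits on UMIs lie near the cluster's own medians, so depth decides in part which cells stay. The ratio of the share against Hypoxia/Angiogenesis (1.40) was above 1 with intervals apart under the 5 alternatives that changed its cells. Leaving out the 5% of cells with most UMIs removed none of them. The ratio was 1.29 without neutrophils under 1093 UMIs, 1.30 matched and 1.63 in core fine clusters. For 1.63 the shares were 72.6% in shZdhhc17 and 44.5% in shSCR, so that core was not limited to fine clusters of Inflammation cells. The ratio of median UMIs (0.771) was 0.867 with at least 1000 UMIs and 0.813 in the core. The ratio of cells without a mitochondrial UMI (1.54) was 1.37 with at least 1000 UMIs and 1.13 matched. Neighbour shares (86.3% to 86.7%), the ratio of genes per cell (1.06 with 5 classes) and the 20 markers at a log2 fold change of 1 or more moved little. The core fine clusters were chosen after the data were seen. Where a value moved, the cause was not tested beyond this. No paired analysis was possible because each group is 1 library.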

Other observations

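On the UMAP of all cells, 98.4% of the 15 nearest cells of an Inflammation cell were annotated neutrophils and 1.48% carried the label D9, which the authors gave to a set of potential doublets. D9 held 48 cells (0.223%) of the shZdhhc17 library and 50 cells (0.219%) of the shSCR library. Its cells had medians of 2034.5 UMIs and 1128.5 genes in shZdhhc17 and of 3354 UMIs and 1584.5 genes in shSCR, and a median mitochondrial share of 4.62% and 5.21%. The remaining neighbours carried the doublet labels D11 (0.0522%), D1 (0.0494%) and D2 (0.0467%).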
